A study of Mus musculus with 6 samples.

Results

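The genes described here are the ligands and receptor chains of interleukin-1 and interleukin-33: the ligands Il1a, Il1b, Il1rn and Il33, and the receptor chains Il1r1, Il1r2, Il1rap and Il1rl1. They were chosen by name. All 8, of 19069 genes listed on any plate, were listed on each of the 6 plates. Their transcripts were counted by SORT-seq, in which each sorted cell is lysed in its own well and every mRNA molecule receives a molecular barcode next to its 3′ end before amplification. The cells came from colon tumors raised in mice by azoxymethane, a carcinogen, followed by dextran sulfate sodium, which causes colitis (AOM/DSS), and the study asked how cancer-associated fibroblasts (CAFs) differ with and without the transcription factor Zeb1. Viable cells without surface EPCAM, CD45 and CD31 were sorted into 384 wells per mouse on a single plate, and plates are numbered as mice here.

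The Fib-Ctrl group holds 3 mice (mice 1, 3 and 4, by plate), whose genotype is given as Zeb1Fib-Ctrl and which lack the Col6a1Cre transgene. The Fib-dZeb1 group holds 3 mice (mice 2, 5 and 6) with the genotype Zeb1Fib-deleted, which carry that transgene. According to the study's methods, both groups come from conditional Zeb1 knockout crosses, so that the controls differ by the absence of Cre. All 6 mice bore AOM/DSS tumors, the labels name no other treatment, and littermates matched for age and of both sexes were used, with the age itself not given in the sources used here. Cre is driven by the Col6a1 promoter, so that deletion is limited to cells in which this promoter has been active. Each mouse was 1 replicate.

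Interleukin-1α (Il1a) and interleukin-1β (Il1b) bind the receptor Il1r1, which signals only after the accessory chain Il1rap has joined it. The antagonist Il1rn occupies Il1r1 without recruiting the accessory chain, and Il1r2 is a decoy receptor that lacks the signaling domain. Interleukin-33 (Il33) is a nuclear cytokine of barrier tissues that is released by damaged cells, and its receptor ST2 (Il1rl1) uses the same accessory chain. Both pathways are known in the gut from the exchange of signals between myeloid cells and the stroma in colitis, and ST2 is known from mast cells and lymphocytes. Transcripts were counted per gene at the 3′ end, so that secreted and membrane-bound forms of a receptor were not separated, and levels of different genes are not compared here.

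A total of 1233 of 2304 wells had 100 to 6000 genes and under 10% mitochondrial transcripts and were kept, 109 to 298 per mouse. Plates held 1575726 to 3699058 transcripts each before this filter, and the same 384 well barcodes were used on every plate. A kept well was gated to the class with the most detected markers out of 8, with at least 3 (4 for pericytes), and none of the 8 cytokine and receptor genes is among the markers. This gave 592 fibroblast-gated, 427 neutrophil-gated, 92 pericyte-gated and 49 epithelial-gated wells, 4 lymphoid-gated, 2 glia-gated, 1 mast-gated and 66 unassigned wells, and 0 macrophage-gated or endothelial-gated wells. The neutrophil-gated wells, led by S100a9, were present although the sort had left out CD45+ cells. Of the 427, 187 held at most 1 transcript each of Ptprc, the gene of CD45, and of Epcam. They made up 6.64%, 84.6% and 14.0% of the kept wells of Fib-Ctrl mice 1, 3 and 4 and 24.2%, 25.9% and 65.1% of those of Fib-dZeb1 mice 2, 5 and 6. Mice 3 and 6 therefore stand apart, with 19 and 15 fibroblast-gated wells. A median of 1568 transcripts was counted in a neutrophil-gated well and 11406 in a fibroblast-gated well. Fibroblast-gated wells were further gated, by 8 markers per subtype, into 171 iCAF-gated (inflammatory CAF), 132 telocyte-gated and 126 Cxcl13-gated wells, with 163 left without a subtype. Zeb1 itself was 106 ± 8.60 counts per 1000000 transcripts (CPM) in fibroblast-gated wells of Fib-Ctrl mice and 62.2 ± 3.07 CPM in Fib-dZeb1 mice (mean ± SD, n = 3 each), a log2 fold change of -0.77 (SE 0.21). The ranges did not overlap, as for 6.23% of all genes, 2.93% being lower in Fib-dZeb1 mice. The edgeR p was 0.0053 unadjusted and 1.0 adjusted, where 0 of 9003 genes passed.

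The genes lie on 4 chromosomes (GRCm38.p6, RefSeq). Il1r2 (chr1:40084692-40125230), Il1r1 (chr1:40222480-40316201) and Il1rl1 (chr1:40404864-40465418) form a cluster on chromosome 1. Il1rn (chr2:24336860-24351491), Il1a (chr2:129299609-129310186) and Il1b (chr2:129364569-129371164) lie on chromosome 2, Il1rap on chromosome 16 (chr16:26581509-26730128) and Il33 on chromosome 19 (chr19:29925113-29960718).

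For Il1b, Il33 and Il1rl1, the genes that the comparisons of neutrophil-gated, inflammatory and telocyte-gated wells turn on, the 250 bases before a RefSeq start are shown, where position -1 is the last base before the start. Capitals mark TATAAA, the letters of the TATA box at any position, and AGATAA (either strand, so also TTATCT), the letters that GATA factors bind. The windows are chr2:129371140-129371389 on the minus strand for Il1b, and chr19:29924863-29925112, chr19:29945540-29945789, chr1:40429320-40429569 and chr1:40439379-40439628 on the plus strand for the 2 starts each of Il33 and Il1rl1.
Il1b: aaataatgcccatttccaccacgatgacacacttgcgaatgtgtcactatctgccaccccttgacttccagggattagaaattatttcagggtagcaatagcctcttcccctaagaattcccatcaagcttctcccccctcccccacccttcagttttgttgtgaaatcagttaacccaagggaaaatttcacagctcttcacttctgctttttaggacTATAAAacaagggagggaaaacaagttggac
Il33, first start: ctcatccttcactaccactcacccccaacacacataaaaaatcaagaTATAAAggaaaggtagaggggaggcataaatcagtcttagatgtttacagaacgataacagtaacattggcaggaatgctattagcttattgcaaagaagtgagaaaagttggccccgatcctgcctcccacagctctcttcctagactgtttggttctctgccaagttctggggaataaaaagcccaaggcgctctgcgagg
Il33, second start: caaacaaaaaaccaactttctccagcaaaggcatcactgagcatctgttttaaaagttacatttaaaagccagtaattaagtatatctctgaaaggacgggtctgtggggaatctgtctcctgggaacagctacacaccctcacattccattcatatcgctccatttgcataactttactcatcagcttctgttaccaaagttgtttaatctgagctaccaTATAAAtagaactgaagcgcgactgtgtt
Il1rl1, first start: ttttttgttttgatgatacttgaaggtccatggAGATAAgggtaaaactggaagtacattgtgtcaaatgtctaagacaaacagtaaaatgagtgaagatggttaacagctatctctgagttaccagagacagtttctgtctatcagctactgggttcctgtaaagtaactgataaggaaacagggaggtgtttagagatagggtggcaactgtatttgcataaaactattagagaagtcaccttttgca
Il1rl1, second start: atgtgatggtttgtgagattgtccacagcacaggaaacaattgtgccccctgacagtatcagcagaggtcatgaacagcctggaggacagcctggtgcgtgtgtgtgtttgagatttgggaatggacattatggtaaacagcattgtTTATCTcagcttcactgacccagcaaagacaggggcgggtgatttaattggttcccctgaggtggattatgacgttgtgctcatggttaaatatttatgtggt
Il1b held TATAAA at -31 to -26, and Il33 held it at -203 to -198 before its first and at -29 to -24 before its second start. These letters were found in 12.4% of 32851 promoters of the same length and in 4 of the 13 starts of the 8 genes. AGATAA was found in 9.99% of all promoters and in 2 of the 13 starts, which are both starts of Il1rl1 (-217 to -212, and -103 to -98 on the other strand). CACCTG, the E-box form known for ZEB factors, was searched on both strands as well and was present in 17.2% of all promoters and in 0 of the 13 windows. Since reads cover 3′ ends, the counts do not show which start of Il33 or Il1rl1 was used.

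The ligand Il1b was found almost entirely in neutrophil-gated wells, while the receptors Il1r1 and Il1rl1 and the ligand Il33 were found in fibroblast-gated wells. Of the transcripts of Il1b in kept wells, 96.6% were in neutrophil-gated wells, and the same wells held 82.8% of Il1a, 83.5% of Il1rn and 88.4% of Il1r2, against 7.59% of all transcripts. Wells left out by the filter were not gated and are not in these shares. They held 962 Il1rn, 904 Il1r2 and 2678 Il1b transcripts, against 1296, 2562 and 8677 in kept wells. Fibroblast-gated wells held 93.8% of Il33, 96.2% of Il1rl1 and 85.5% of Il1r1, against 71.4% of all transcripts. Il1rap was shared, with 46.4% in neutrophil-gated and 43.7% in fibroblast-gated wells.

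**Figure D1:**
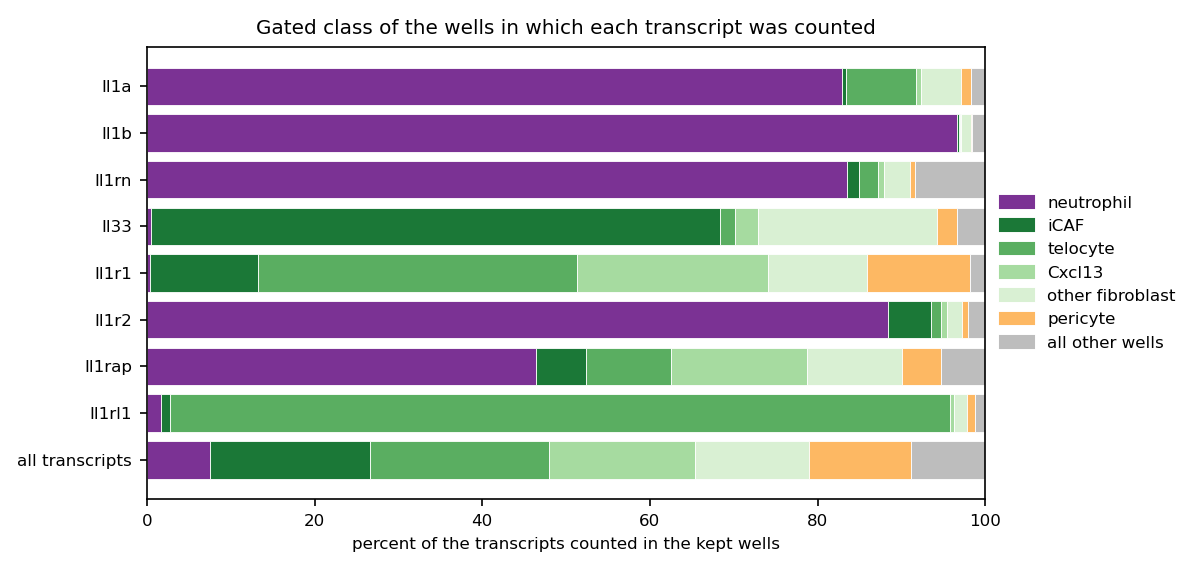
Share of each gene's transcripts, in percent of those counted in the 1233 kept wells (x axis), by the gated class of the well (colors), with all transcripts as the lowest bar. Neutrophil-gated wells hold 96.6% of Il1b, telocyte-gated wells 93.0% of Il1rl1 and iCAF-gated wells 67.9% of Il33.

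To ask which cells carry ligands and which carry receptors, transcripts were summed per mouse and class, and neutrophil-gated and fibroblast-gated sums of the same 6 mice were compared with the mouse as a block. All 8 genes could be tested, of which 5 were higher and 3 lower in neutrophil-gated wells (edgeR quasi-likelihood test, Benjamini-Hochberg adjusted over 3834 genes). The filter on genes asks for a minimum level in only as many sums as a single class has. A gene can thus enter through the class where it is high, so the number that passed is not read as a result. The background of this comparison is high, since 78.1% of all genes tested passed, 25.0% in the higher and 53.1% in the lower direction. The median log2 fold change over all genes was -0.95 and moved to -0.47 with barcode counts, while the median of the 8 genes was 4.61.

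Il1b in neutrophil-gated wells was 9863, 11696 and 10830.4 CPM in Fib-Ctrl mice 1, 3 and 4 and 12856, 12821 and 9648 CPM in Fib-dZeb1 mice 2, 5 and 6. In fibroblast-gated wells of the same mice it was 27.9, 40.2 and 2.79 CPM, and 22.4, 16.2 and 16.4 CPM. The mice differed little within neutrophil-gated wells. The log2 fold change was 9.10 (SE 0.39, edgeR adjusted p = 1.0e-18). At the level of wells, 412 of 427 neutrophil-gated wells held Il1b, with a median of 15.0 and up to 123 transcripts. In fibroblast-gated wells 62.5% of the Il1b transcripts came from the 50 of 592 wells that also held at least 3 neutrophil markers, where Il1b was 143 CPM against 8.90 CPM in the remaining 542 wells. Per 100 transcripts of S100a8 and S100a9, Il1b was 10.5 to 27.9 in neutrophil-gated and 14.8 to 39.2 in fibroblast-gated wells of the 6 mice. The part of free RNA or of wells holding more than 1 cell in the fibroblast value was not tested.

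Il1a, the second agonist, was 174, 206 and 191 CPM in neutrophil-gated wells of Fib-Ctrl mice and 222, 241 and 125 CPM in those of Fib-dZeb1 mice. It was at most 23.7 CPM (mouse 4) in fibroblast-gated wells (log2 fold change 5.77, SE 0.53). It was found in 56 neutrophil-gated wells, and 55 of these held Il1b.

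The antagonist Il1rn was 1364, 1553 and 604 CPM in neutrophil-gated wells of Fib-Ctrl mice and 1440, 1539 and 1473 CPM in those of Fib-dZeb1 mice. Mouse 4, with 19 transcripts in 19 wells, was the only low one. Fibroblast-gated wells had 17.5 ± 11.4 CPM (SD, n = 6), and the log2 fold change was 6.36 (SE 0.32). Antagonist and agonist were often in the same well, with Il1rn in 293 of the 412 wells that held Il1b. Per 100 S100a8 and S100a9 transcripts, Il1rn was 0.66 to 3.35 in neutrophil-gated and 8.07 to 47.1 in fibroblast-gated wells. The part of free RNA or of wells holding more than 1 cell was not tested for Il1rn either. Epithelial-gated wells of the 3 mice with at least 5 such wells had 74.5 ± 73.4 CPM of Il1rn.

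The decoy receptor Il1r2 was higher in neutrophil-gated than in fibroblast-gated wells. It was 3251, 2734 and 3757 CPM in Fib-Ctrl mice and 4111, 2911 and 2942 CPM in Fib-dZeb1 mice, against 8.04 to 99.6 CPM in fibroblast-gated wells (log2 fold change 7.02, SE 0.40). Of the 427 wells, 371 held Il1r2, and 366 held both Il1r2 and Il1b. The accessory chain Il1rap was also higher there, at 269 ± 75.2 against 23.7 ± 8.39 CPM (SD, n = 6, log2 fold change 3.45, SE 0.30), whereas Il1r1, the signaling receptor it joins, was at 0 in 2 of the 6 neutrophil-gated sums and at 3.31 to 31.8 CPM in the others. Each of the others rests on 1 transcript, and the sums at 0, of mice 1 and 5, hold 34490 and 83165 transcripts. Such counts do not show that Il1r1 was absent from neutrophil-gated wells. Il1r1 was 86.3 to 174 CPM in fibroblast-gated wells, above the neutrophil-gated value in 6 of 6 mice (log2 fold change -4.45, SE 0.53).

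Il33 and its receptor were both lower in neutrophil-gated wells. Il33 was at 0 in 5 of the 6 neutrophil-gated sums, where a count of 0 allows up to 9.94 to 95.4 CPM (3 transcripts, counting error only), and mouse 5 had 4 transcripts (48.1 CPM), against 45.8 to 229 CPM in fibroblast-gated wells, which overlaps by the value of mouse 5 alone (log2 fold change -4.35, SE 0.59). Without mouse 5 every neutrophil-gated sum is at 0, and the fitted value of -8.88 depends on the prior count. Il1rl1 was 0 to 77.3 CPM in neutrophil-gated wells and 121 to 2171 CPM in fibroblast-gated wells (log2 fold change -3.00, SE 0.44). Without mouse 6, which has the highest fibroblast value, the log2 fold change of Il1rl1 was -1.85.

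**Figure D2:**
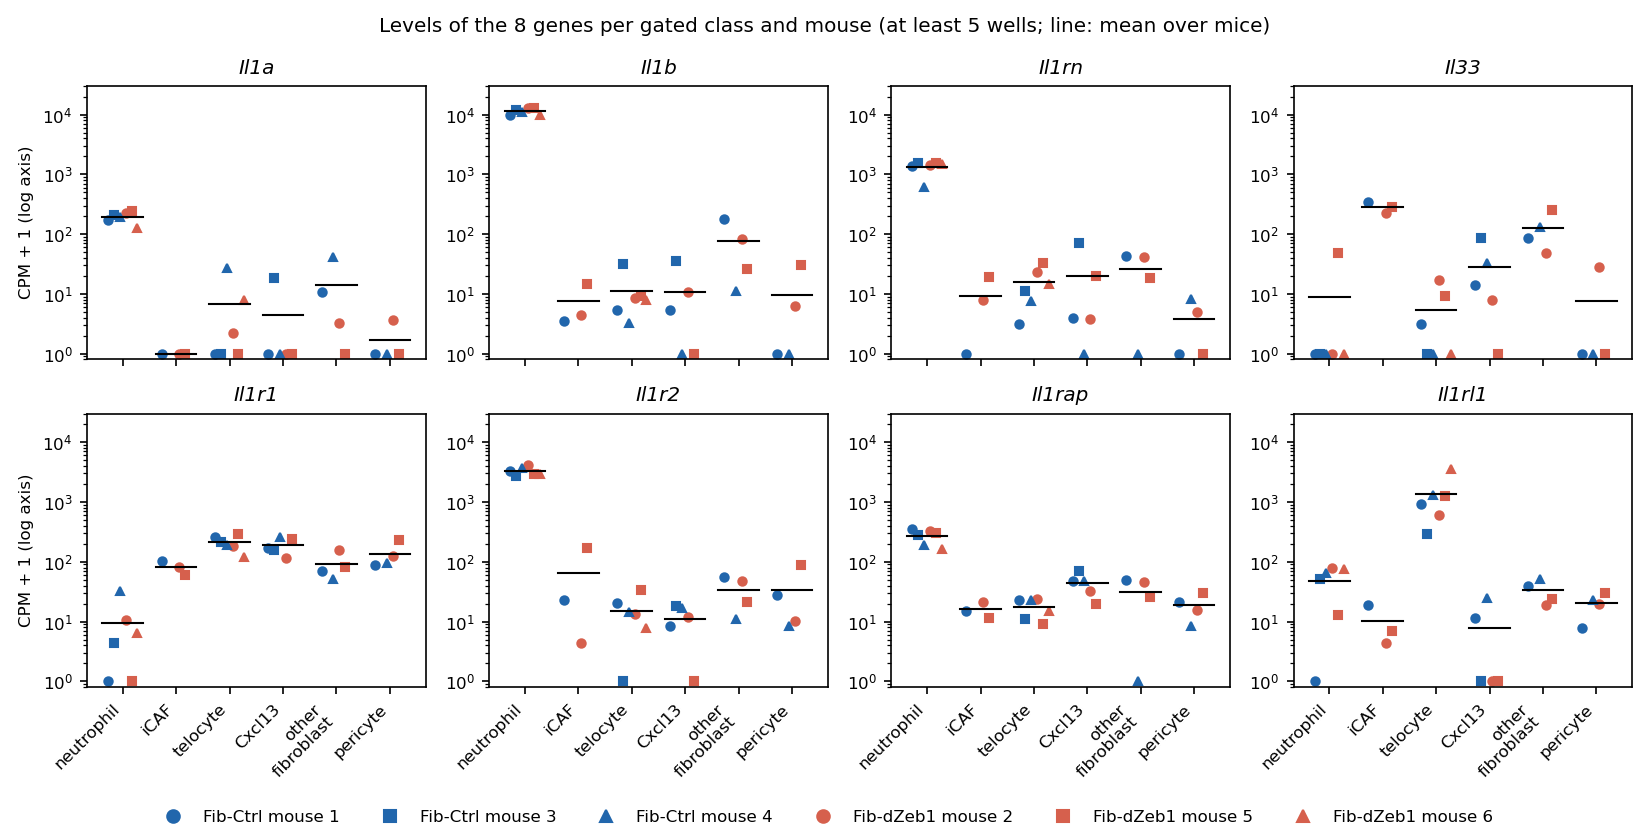
CPM + 1 (log axis) of each gene in the gated classes (x axis), with 1 point for each mouse with at least 5 wells of the class and a line at the mean over mice. Il1b, Il1a, Il1rn and Il1r2 are highest in neutrophil-gated wells, Il1rl1 in telocyte-gated wells and Il33 in iCAF-gated wells, while Il1r1 is spread over all fibroblast subtypes and pericytes.

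The classes kept their order when wells of equal depth were compared. After each well had been thinned to 500 barcode counts, with 22 neutrophil-gated and 23 fibroblast-gated wells too shallow for it, Il1b was found in 93.7% ± 8.39 of neutrophil-gated and 1.04% ± 1.19 of fibroblast-gated wells (SD over 6 mice), against 94.8% and 13.9% unthinned. Pericyte-gated wells, a class outside the myeloid lineage, had 5.51% thinned and 7.04% ± 9.46 unthinned (SD, n = 4 mice) at a median of 11744 transcripts. The unthinned share rests on 6 Il1b transcripts in 6 of 92 wells and reached 20% in a single mouse. No background for the fibroblast share is therefore drawn from it. Il1r2 was found in 71.3% ± 13.4 of thinned neutrophil-gated and 3.53% ± 3.67 of thinned fibroblast-gated wells.

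Among the fibroblast subtypes, the receptor Il1rl1 had its highest mean level in telocyte-gated wells and its ligand Il33 in iCAF-gated wells. Telocytes are subepithelial fibroblasts that line the crypts and supply WNT and BMP ligands, and the gate used Foxl1, Wnt5a and BMP genes. Of the transcripts in kept wells, telocyte-gated wells held 93.0% of Il1rl1 and 1.79% of Il33, against 21.4% of all transcripts. The iCAF-gated wells held 1.09% and 67.9%, against 19.0% of all transcripts. Wells left out by the filter, which were not gated, held 1887 Il1rl1 transcripts, against 2387 in kept wells. Subtypes were compared with the remaining fibroblast-gated wells of the same mice.

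Il1rl1 in telocyte-gated wells was 916, 287 and 1328 CPM in Fib-Ctrl mice 1, 3 and 4 and 614, 1268 and 3590 CPM in Fib-dZeb1 mice 2, 5 and 6, on 7 to 46 wells each. The remaining fibroblast-gated wells of these mice had 29.2 ± 31.9 CPM (SD, n = 6) and at most 91.2 CPM. Of the 8 genes, 3 could be tested here, and all 3 passed, 2 higher and 1 lower, where 12.9% of 5495 genes passed, 6.02% higher and 6.84% lower. As above, a gene can enter the test through the group where it is high, as Il1rl1 and Il33 did. The number that passed is therefore not read as a result, and the filter was the same for the other subtypes. For Il1rl1 the log2 fold change was 5.77 (SE 0.29, edgeR adjusted p = 9.1e-08). It was 5.01 to 6.01 under the 16 alternatives run for it, each of which passed.

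Telocyte-gated wells were not uniform. Il1rl1 was detected in 71 of 132 wells, 44.4% to 62.5% per mouse, and the 31 wells with at least 10 transcripts held 94.8% of the telocyte-gated transcripts. Outside the telocyte gate 57 of 460 fibroblast-gated wells held Il1rl1, 0 of them with 10 or more and the highest with 5. Wells with and without Il1rl1 had median depths of 16130 and 14568 transcripts and carried a mean of 5.25 and 4.54 telocyte markers. The highest well, in mouse 6, had 473 transcripts, 21.3% of all that were telocyte-gated, at a depth of 36122 transcripts and with 4 neutrophil markers detected. Without it mouse 6 fell from 3590 to 425 CPM, and the mean over the 6 mice from 1334 ± 1173 to 806 ± 436 CPM. In all, 20 telocyte-gated wells held at least 3 neutrophil markers, and with all such fibroblast-gated wells left out the log2 fold change of Il1rl1 was 5.94. That fit also drops any mouse left with under 5 wells in either group.

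**Figure D3:**
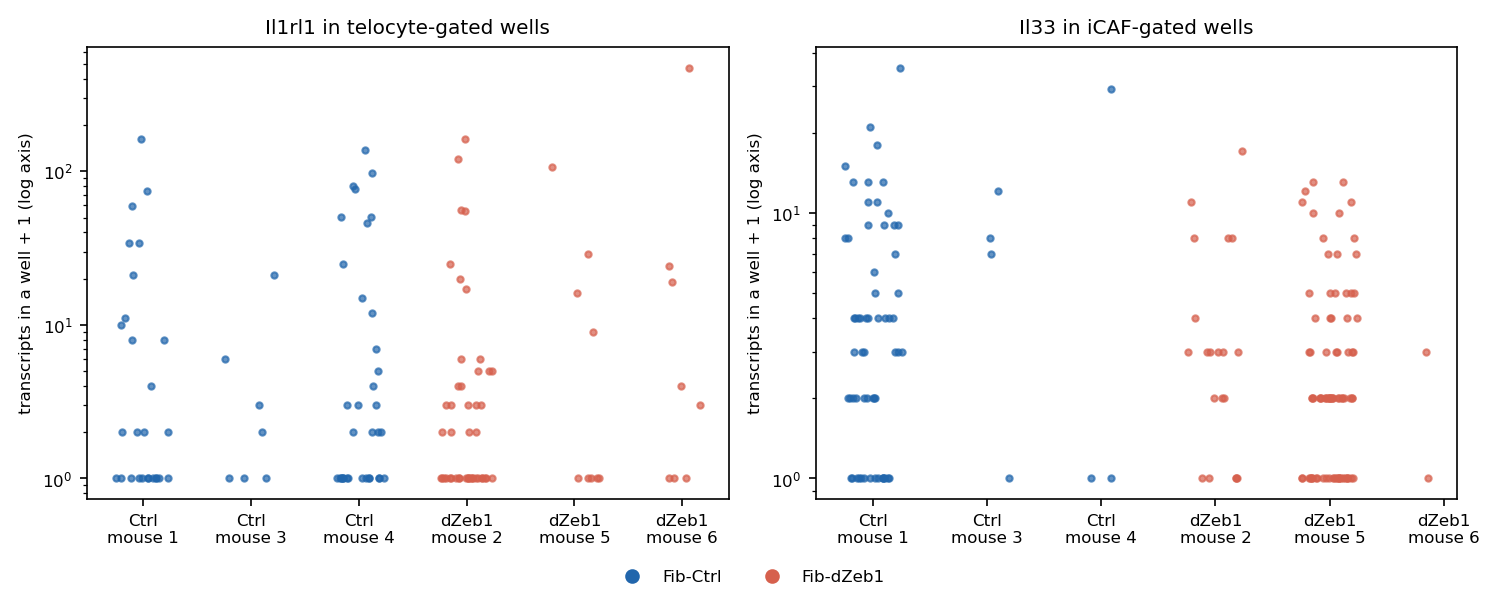
Transcripts in a well + 1 (log axis) for each telocyte-gated well (left, Il1rl1) and each iCAF-gated well (right, Il33), by mouse (x axis) and genotype (color). Il1rl1 reaches 10 or more transcripts in 31 of 132 wells with 1 well at 473, whereas Il33 stays at or below 34.1.

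Il33 showed the opposite distribution. In iCAF-gated wells it was 339 CPM in Fib-Ctrl mouse 1 and 220.0 and 279 CPM in Fib-dZeb1 mice 2 and 5, the 3 mice with at least 5 such wells. The remaining fibroblast-gated wells of these mice had 72.2 ± 86.4 CPM, and each mouse was higher in the iCAF-gated wells (log2 fold change 2.75, SE 0.50, edgeR adjusted p = 0.0044). Among the remaining wells mouse 5 was high, at 172 CPM against 24.9 and 19.7 CPM in mice 1 and 2, and the log2 fold change was 2.10 without mouse 1, 2.36 without mouse 2 and 3.796 without mouse 5, each of which passed. Without the mouse as a block it was 2.27 with an adjusted p of 0.11. Il33 was detected in 45 of 60, 15 of 20 and 55 of 82 wells of mice 1, 2 and 5, with up to 34.1 transcripts. Fibroblast-gated wells left without a subtype had 127 ± 86.9 CPM of Il33 (SD, n = 4) and up to 247 CPM, which lies within the iCAF-gated range. They held 21.4% of Il33, against 13.6% of all transcripts. In telocyte-gated wells Il33 was at 0 in mice 3, 4 and 6, which allows up to 30.7, 6.59 and 20.7 CPM, and at 2.18, 16.2 and 8.05 CPM in mice 1, 2 and 5, against 61.8 to 254 CPM in the remaining fibroblast-gated wells (log2 fold change -4.35, SE 0.53). Without mouse 2, the highest of these, it was -6.72. Only 3 telocyte-gated wells held both Il33 and Il1rl1, of 4 with Il33 and 71 with Il1rl1.

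The other subtypes were low in Il1rl1. Their remaining wells include the telocyte-gated wells, which held 93.0% of Il1rl1. A lower value of Il1rl1 in these subtypes therefore repeats the telocyte-gated result. Fibroblast-gated wells left without a subtype had 32.4 ± 14.8 CPM of Il1rl1 (SD, n = 4). Il1rl1 was lower in iCAF-gated wells (9.09 ± 7.69 against 282 ± 26.3 CPM, n = 3, log2 fold change -4.63, SE 0.37), which makes 1 gene higher and 1 lower of 7 tested, where 7.98% of 7911 genes passed, 4.46% higher and 3.51% lower. It was also lower in Cxcl13-gated wells (6.76 ± 10.3 against 390.3 ± 371 CPM, n = 5, log2 fold change -5.84, SE 0.42), a subtype led by the B-cell attractant Cxcl13. There 3 of 6 genes tested were lower and 0 higher, where 4.0% of 7493 genes passed, 1.84% higher and 2.16% lower. The other 2 were Il33, at 27.5 ± 34.8 against 138 ± 76.0 CPM (log2 fold change -2.97, SE 0.40), and Il1b, at 9.70 ± 14.4 against 25.8 ± 15.8 CPM (log2 fold change -2.03, SE 0.48, edgeR adjusted p = 0.016). The call of Il1b did not hold with DESeq2 (adjusted p = 0.10), without wells holding more than 1 transcript of Ptprc or Epcam (0.061) or without the block (0.30). The comparisons of the 3 subtypes share wells, since each subtype is among the remaining wells of the others. For Il33, the remaining wells of the telocyte-gated and Cxcl13-gated comparisons include the iCAF-gated wells, which held 67.9% of it.

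Il1r1, the receptor for interleukin-1, was found in every fibroblast subtype and in pericyte-gated wells. It was 262, 215 and 191 CPM in telocyte-gated wells of Fib-Ctrl mice 1, 3 and 4 and 182, 290.0 and 118 CPM in those of Fib-dZeb1 mice 2, 5 and 6. The remaining fibroblast-gated wells had 102 ± 37.6 CPM, and telocyte-gated wells were higher in 6 of 6 mice, with overlapping ranges (log2 fold change 0.95, SE 0.22, edgeR adjusted p = 0.0096). With at least 10 wells required per mouse, which leaves fewer mice, the log2 fold change was 0.63 and the adjusted p 0.074. The order of the mean levels was telocyte-gated (209.7 ± 61.4, n = 6), Cxcl13-gated (188 ± 60.2, n = 5), pericyte-gated (136 ± 67.8, n = 4) and iCAF-gated wells (80.3 ± 20.8, n = 3). Telocyte-gated wells were higher than Cxcl13-gated wells in 4 of 5 mice (exact sign-flip test over mice, two-sided p = 0.313, where 5 mice cannot give less than 0.0625). Pericyte-gated wells were lower than telocyte-gated wells in 4 of 4 mice (exact p = 0.125, the smallest possible), and lower than all fibroblast-gated wells in 3 of 4 (exact p = 0.875). With so few mice these tests could not reach 0.05, and neighbors in this order overlapped in range. In iCAF-gated wells Il1r1 was lower in 3 of 3 mice (log2 fold change -0.81, SE 0.23, edgeR adjusted p = 0.056), short of the threshold. Wells with both Il1r1 and Il1rl1 numbered 56 of the 71 telocyte-gated wells with Il1rl1.

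The accessory chain Il1rap was 47.3, 69.0 and 46.9 CPM in Cxcl13-gated wells of Fib-Ctrl mice 1, 3 and 4 and 31.4 and 18.6 CPM in those of Fib-dZeb1 mice 2 and 5. It was lower in telocyte-gated wells in 5 of 5 mice (16.9 ± 7.14 against 42.6 ± 18.9 CPM, exact p = 0.0625, the smallest possible, and 0.236 after Benjamini-Hochberg adjustment over 34 such tests). Il1rap passed in neither of the iCAF-gated and Cxcl13-gated comparisons, and could not be tested in the telocyte-gated one. Il1r2 was low in fibroblasts with 1 exception. In iCAF-gated wells of mouse 5 it was 168 CPM, in 31 of 82 wells, against 21.7 and 3.38 CPM in mice 1 and 2. Wells of mouse 5 without any neutrophil marker, 48 in number, held 59.1 of its 111 Il1r2 transcripts, and Il1b in the iCAF-gated wells of this mouse came to 9 transcripts. Per 100 S100a8 and S100a9 transcripts Il1r2 was 241 in fibroblast-gated and 6.34 in neutrophil-gated wells of mouse 5.

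Between genotypes, none of the 8 genes passed the edgeR test in all kept or in fibroblast-gated wells. Over all kept wells Il1b was 188, 5314 and 293 CPM in Fib-Ctrl mice 1, 3 and 4 and 455, 686 and 2600.4 CPM in Fib-dZeb1 mice 2, 5 and 6, highest in mice 3 and 6, in which neutrophil-gated wells made up the largest share of the kept wells. The groups overlapped for each of the 8 genes, where 3.86% of all genes did not overlap, 1.46% being lower in Fib-dZeb1 mice. Of the 8 genes 0 passed, as did 0.0% of 10424 genes (73 at an unadjusted p under 0.05, and 1 with DESeq2), and the log2 fold changes ran from -1.31 (SE 1.17) for Il1a to 0.48 (SE 0.89) for Il1rl1. The share of neutrophils and the level per cell cannot be told apart in these sums. Within neutrophil-gated wells Il1b was 10797 ± 917 CPM for Fib-Ctrl and 11775 ± 1842 CPM for Fib-dZeb1 mice, and the exact permutation p of Il1a, Il1b, Il1rn, Il1r2, Il1rap and Il1rl1 was 0.5 to 0.9. With 3 mice against 3 the smallest possible p is 0.1.

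Within fibroblast-gated wells 0 of the 7 genes tested passed, as did 0.0% of 9003 genes (130 at an unadjusted p under 0.05, and 4 with DESeq2). Il1r1 was 149, 149 and 174 CPM in Fib-Ctrl mice and 143, 97.1 and 86.3 CPM in Fib-dZeb1 mice. Among the 7, only Il1r1 had groups that did not overlap, which was the case for 6.23% of all genes, and in the same direction for 2.93%. The difference was -0.49 on the log2 scale (SE 0.25, unadjusted edgeR p = 0.078, adjusted p = 1.0), and the exact permutation p was 0.1, the smallest possible. The difference was smaller within telocyte-gated wells, at 223 ± 36.2 against 197 ± 87.1 CPM, where the groups overlapped. The iCAF-gated subtype, in which Il1r1 was lowest, made up 58.6% of the fibroblast-gated wells of Fib-dZeb1 mouse 5 and 32.1% of those of Fib-Ctrl mouse 1, against 4.84% to 21.1% in the other mice, and its part in the difference was not tested.

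Il33 in fibroblast-gated wells was 136, 117 and 62.9 CPM in Fib-Ctrl mice and 45.8, 229 and 94.7 CPM in Fib-dZeb1 mice, with overlapping groups (log2 fold change 0.24, SE 0.57). Il1rl1 was 203, 121 and 856 CPM in Fib-Ctrl mice and 220.2, 138 and 2171 CPM in Fib-dZeb1 mice. Its log2 fold change was 1.07 (SE 1.02), and turned to -1.50 without the wells holding at least 3 neutrophil markers and to -1.08 without mouse 6. Leaving out those wells also drops any mouse with under 5 fibroblast-gated wells left. Within telocyte-gated wells Il1rl1 was 844 ± 524 against 1824 ± 1564 CPM (exact p = 0.5), and the Fib-dZeb1 value was 769 ± 442 CPM, below that of Fib-Ctrl mice, without the highest well of mouse 6. Il1r2 differed by 1.58 on the log2 scale (SE 0.71, edgeR adjusted p = 1.0), and by 0.18 without mouse 5. Of the 5 genes compared within telocyte-gated wells, only Il1rn had groups that did not overlap, at 6.33 ± 4.03 against 22.8 ± 9.20 CPM (exact p = 0.1, the smallest possible), as had 9.44% of 9148 genes there. Within Cxcl13-gated wells, with 3 Fib-Ctrl against 2 Fib-dZeb1 mice, the groups did not overlap for 2 of 3 genes compared, where 17.1% of all genes did not. These were Il1rap, at 54.4 ± 12.6 against 25.0 ± 9.05 CPM (exact p = 0.1, the smallest possible), and Il33, at 13.3, 86.2 and 31.2 CPM against 6.83 and 0 CPM (exact p = 0.2). Within pericyte-gated wells Il1r1 was 87.6 and 95.1 CPM in Fib-Ctrl mice and 125 and 234 CPM in Fib-dZeb1 mice, without overlap, as for 29.4% of all genes, and 2 mice against 2 cannot give an exact p below 0.333. After Benjamini-Hochberg adjustment over all 32 such tests each exact p was 1.0.

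**Figure D4:**
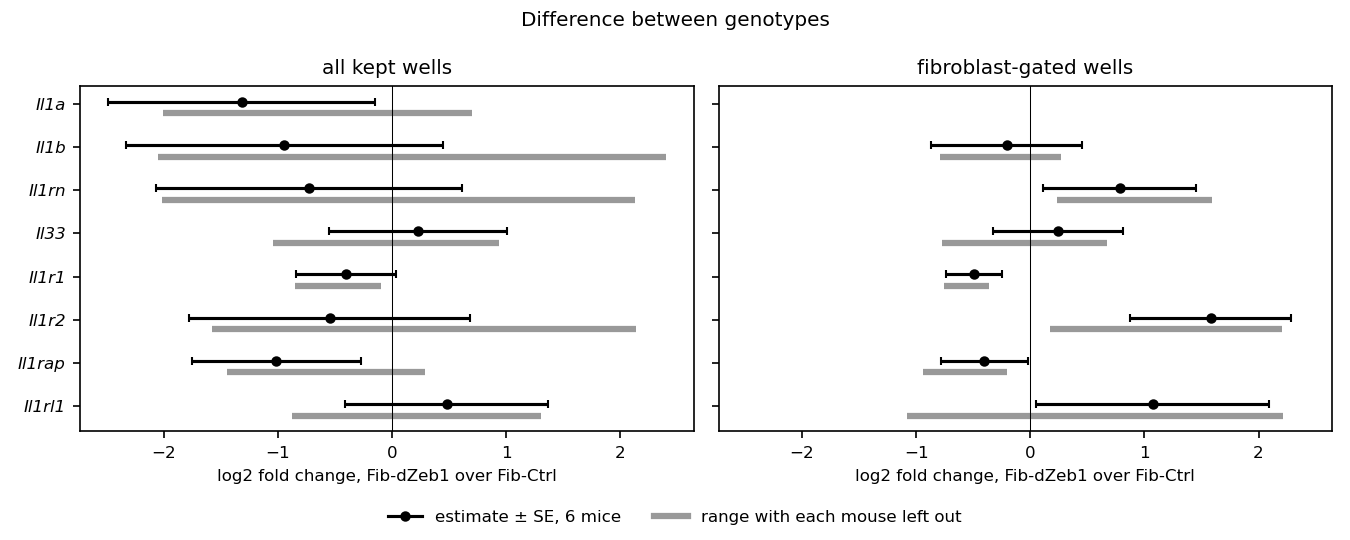
Log2 fold change between genotypes (x axis, Fib-dZeb1 over Fib-Ctrl) for each gene in all kept wells (left) and fibroblast-gated wells (right), where black points and bars are the estimate ± SE over 6 mice and gray bars the range with each mouse left out. Gray bars cross 0 for 7 of the 8 genes in all kept wells, and for Il1b, Il33 and Il1rl1 in fibroblast-gated wells.

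The other genes of the pathway were read from 4 lists. Between classes or subtypes, a listed gene can also enter the test through the group where it is high. The numbers that passed are therefore not read as a result. Of 15 genes of interleukin-1 receptor signaling, 8 could be tested between neutrophil-gated and fibroblast-gated wells, where 4 were higher and 1 lower (25.0% and 53.1% of all genes), with a median log2 fold change of 0.04 against -0.95 over all genes. The adaptor Myd88 (249 ± 63.2 against 84.3 ± 47.2 CPM, log2 fold change 1.58), the kinase Irak2 (330.1 ± 95.1 against 19.4 ± 7.48 CPM, 4.14) and the inhibitory Irak3 (122 ± 38.8 against 54.1 ± 19.8 CPM, 1.21) were higher, and the kinase Irak1 was lower (-1.61). Of 8 inflammasome genes, whose products process and release interleukin-1β, 5 could be tested, and 4 were higher in neutrophil-gated wells, as were 25.0% of all genes. These were the sensor Nlrp3 (733 ± 299.8 against 5.63 ± 7.46 CPM, log2 fold change 7.60), the caspases Casp4 (1.56) and Casp1 (1.26) and the pore-forming Gsdmd (0.84). Of the other cytokines and receptors of the family, the interleukin-36γ gene Il1f9 was the only one tested and was higher (738 ± 228 against 3.90 ± 6.21 CPM, log2 fold change 8.07).

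Among fibroblasts, 2 genes that act directly at the receptor differed between the subtypes. Myd88 and Irak3 were higher in iCAF-gated wells (146 ± 78.3 against 81.1 ± 20.4 CPM, log2 fold change 0.95, and 116 ± 41.3 against 33.1 ± 4.30 CPM, 1.96), the only 2 of 11 signaling genes tested that passed, where 7.98% of all genes did. Both were lower in telocyte-gated wells (-1.07 and -0.89), again the only 2 that passed, of 9 tested, where 12.9% of all genes did, and in Cxcl13-gated wells 0 of 11 passed, where 4.0% of all genes did. No inflammasome gene passed in a subtype (0 of 3, 5 and 5 tested in telocyte-gated, iCAF-gated and Cxcl13-gated wells).

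Of 21 genes known to respond to interleukin-1 in fibroblasts, 7 were higher and 2 lower of 17 tested in iCAF-gated wells (4.46% and 3.51% of all genes), with a median log2 fold change of 0.76 against -0.04 over all genes. The cytokine Lif (51.2 ± 45.3 against 10.3 ± 11.6 CPM, 2.57) and the chemokine Ccl7 (987 ± 786 against 187 ± 56.8 CPM, 2.31) were higher there, and the neutrophil chemokine Cxcl5 (-2.31) and the matrix metalloproteinase Mmp10 (-5.57) were lower. In telocyte-gated wells 3 were higher and 5 lower of 17 tested (6.02% and 6.84% of all genes), with a median of -0.47 against 0.01. The metalloproteinases Mmp10 (1568 ± 1656 against 207 ± 494 CPM, log2 fold change 5.87) and Mmp13 (2220 ± 3606 against 299.8 ± 715 CPM, 4.68) were higher, and Il6 (-4.58) and Ccl7 (-3.19) were lower. In Cxcl13-gated wells 3 were higher, with Vcam1 (1.25) and the NF-κB inhibitor Tnfaip3 (0.98) among them, and 2 were lower, Mmp10 (-6.64) and Saa3 (-3.37), of 16 tested (1.84% and 2.16% of all genes). Between neutrophil-gated and fibroblast-gated wells 6 were higher and 6 lower of 13 tested, where 78.1% of all genes passed, led by the neutrophil chemokine Cxcl2 (6836 ± 1295 against 164 ± 101 CPM, log2 fold change 5.50). Between genotypes 0 genes of any list passed, in all kept or in fibroblast-gated wells. In fibroblast-gated wells the response gene with the smallest p was Cxcl5, which the Fib-Ctrl mice had at 465 ± 241 CPM and the Fib-dZeb1 mice at 209.7 ± 26.4 CPM (log2 fold change -1.13, edgeR adjusted p = 1.0).

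The pattern of each gene was compared with 9348 others over 23 profiles of a class or subtype in 1 mouse with at least 10 wells, by Pearson's r of log2(CPM + 10), as a description over profiles that share mice and depth. Il1b was most like Lilrb4 (r = 0.997), Clec7a, Dusp2, Hdc and Trem1, and Il1r2 most like Ccr1 (0.978), Clec4e, Fmnl1, Ncf1 and Ncf4. Il1a was most like Wfdc17 (0.968), Il1rn like Sema4d (0.978) and Il1rap like Mapkapk2 (0.946). Il1r1 followed Ppic (0.936), Epn2, Scarf2, Lamc1 and Mmp14. Il33 was most like Fgd5 (0.889), Ebf3, Osr2, Pcolce2 and Creb5, and Il1rl1 most like 9930013L23Rik (0.808), Bean1, Col6a4, Inhba and H2-Ab1. Between the genes themselves, r was 0.97 for Il1b and Il1r2 and -0.33 for Il33 and Il1rl1.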

How the data were processed

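The deposited files hold, for each plate, whole barcode counts and the estimated counts of transcripts that the authors derived from them, per gene and well. The submitters' processing notes name BWA, Cell Ranger 2.1.1 and GRCm38, without roles. Transcript counts were used, and sums per mouse and class with at least 5 wells were rounded. Genes absent from a plate were set to 0, and spike-ins (7.85% to 18.6% of counts) were left out. No doublet caller was run. Fits used edgeR 4.0.16 in R 4.3.3 (filterByExpr, TMM, quasi-likelihood test, Benjamini-Hochberg threshold 0.05), with DESeq2 1.42.0 as an alternative, and were tested on simulated data. Class and subtype fits had the mouse as a block, since both sums come from the same animal. Genotype fits had no covariate. Exact tests over mice were two-sided (Python 3.11.15). CPM is per 1000000 transcripts of a sum, spike-ins excluded, given as mean ± SD over mice. The members, gates, gene lists and tests were chosen with earlier results of these data known. The 8 genes were named throughout, and of each list at most 4 that passed with the largest change, or, where 0 passed, at most 2 with the smallest p. The wells with neutrophil markers were left out as an alternative added after seeing the data. Il1f9 is the files' name for Il36g.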

Additional observations from a re-analysis of the deposited data

Results flagged for a closer look

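Of 40 sets of 4 to 6 mice, 14 held a value far from the others. Some of these values rest on 1 to 4 transcripts, and sets of fibroblast-gated wells and of their subtypes share wells. The count of 14 is therefore not set against a chance rate. In neutrophil-gated wells these were Il1rn in mouse 4 (604 CPM, low), Il33 in mouse 5 (48.1 CPM, from 4 transcripts) and Il1r1 in mouse 4 (31.8 CPM, from 1 transcript). In fibroblast-gated wells they were Il1a in mouse 4 (23.7 CPM), Il1r2 in mouse 5 (99.6 CPM) and Il1rl1 in mouse 6 (2171 CPM). In telocyte-gated wells they were Il1a in mouse 4 (26.4 CPM), Il1b in mouse 3 (30.7 CPM, from 3 transcripts) and Il1rl1 in mouse 6 (3589.9 CPM, most of it from 1 well). In the 5 Cxcl13-gated wells of mouse 3, Il1a (17.2 CPM), Il1b (34.5 CPM) and Il1rn (69.0 CPM) rest on 1, 2 and 4 transcripts. In pericyte-gated wells of mouse 2, Il1a was 2.66 CPM and Il33 26.6 CPM.

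Outside the comparisons, the only mast-gated well held 5 Il1rl1 transcripts. The 1071 wells left out by the filter held 2678 transcripts of Il1b, 1887 of Il1rl1, 962 of Il1rn, 904 of Il1r2 and 187 of Il33.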

How the results depend on the processing

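Of 238 alternatives run for genes called in a comparison, 233 kept direction and call, and the 5 exceptions, for Il1b, Il1r1 and Il33, are given above or below. Of those run for genes not called, 273 changed nothing, 9 passed the threshold and 19 turned the direction. Among the 9, Il1r1 in iCAF-gated wells had an edgeR adjusted p of 0.047 to 0.050 under 4 settings.

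The number of genes called between neutrophil-gated and fibroblast-gated wells was 2996, and was 7389 without a filter on genes. It was 1949 without wells holding more than 1 transcript of Ptprc or Epcam, 1856 without wells holding neutrophil markers, and 2471 to 2996 with each mouse left out. For telocyte-gated wells it was 707, 1186 without a filter and 364 (without mouse 1) to 737, with 431 without mouse 2. For iCAF-gated wells it was 631, 1162 without a filter and 407 (without mouse 1) to 809. For Cxcl13-gated wells it was 300, 590 without a filter and 129 (without mouse 1) to 271, with 160 without mouse 2. Without the replicate block these 2 counts were 351 and 109. The block stands for the animal. Replicate numbers are in accession order and pair no samples between genotypes, so no paired analysis was possible because nothing ties a control to a deleted mouse. Between genotypes edgeR called 0 genes and DESeq2 1 in all kept wells (Dlk1) and 4 in fibroblast-gated wells (Actg2, Mylk, Procr and Tagln), named after their values were seen.

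Between genotypes in fibroblast-gated wells, Il1b turned to 0.0598 with a mitochondrial limit of 30% and 0.37 without the Ptprc or Epcam wells named above. It turned to 1.84 without wells holding neutrophil markers, where Il1rl1 turned to -1.50. That setting also drops any mouse left with under 5 wells. Il1r1 in Cxcl13-gated wells turned to -0.12 with at least 10 wells per mouse. With each mouse left out, the log2 fold changes over all kept wells ran from -2.003 to 0.70 for Il1a, -2.05 to 2.40 for Il1b, -2.02 to 2.13 for Il1rn, -1.57 to 2.14 for Il1r2 and -1.45 to 0.29 for Il1rap, which turned without mouse 3, from -1.04 to 0.94 for Il33 and from -0.88 to 1.30 for Il1rl1. In fibroblast-gated wells they ran from -0.79 to 0.26 for Il1b, -0.78 to 0.68 for Il33 and -1.08 to 2.21 for Il1rl1, and in iCAF-gated wells Il1r2 ran from -0.32 (without mouse 5) to 1.75. Why these values moved was not tested. Levels of a few transcripts per mouse, as of Il1a and Il1b in fibroblast subtypes, are limited by depth and by the number of wells.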
